A study of Mus musculus with 6 samples.

Results

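The genes described here mark T cells and natural killer (NK) cells. They are 35 of the 34709 genes in the deposited table, chosen as the rows whose gene name equals a listed name and not by any measured value. Of these, 22 are T-cell genes and 13 are cytotoxic genes, which are used by NK cells and killer T cells, and the classes are given separately. Articular cartilage of knockout (KO) mice was compared with that of wildtype mice by RNA sequencing, with 3 libraries labelled for each group. All 6 libraries came from male C57BL/6J mice aged 18 months, and the methods of the study describe aged littermates. The labels name no treatment of either group. The labels do not give whether a library was 1 animal or a pool, so p-values measure only the spread between these libraries, which may be technical.

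T cells recognise peptides on other cells through a receptor of an alpha and a beta chain, whose constant parts are encoded by Trac, Trbc1 and Trbc2. The receptor chains have short tails and signal through the CD3 chains and the zeta chain, which are phosphorylated by the kinase Lck and then bound by the kinase Zap70. NK cells lack this receptor and read activating and inhibitory receptors of their own, but they kill in the way that CD8 T cells do, by releasing granules with perforin and granzymes. Cartilage has no blood vessels and is poor in lymphocytes, while the marrow of the underlying bone holds both cell types.

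KO replicates 2 and 3 were far more alike than any other pair of libraries. Their counts differed by a noise ratio of 5.77, the squared difference relative to that of counting noise, whereas the other 14 pairs lay between 23.7 and 85.4. They were averaged and counted as 1 sample, which left 2 KO and 3 wildtype samples, and the fit of the 6 libraries as labelled is given beside the results. Markers of blood and marrow cells were abundant in tissue labelled as cartilage. The summed level of 12 neutrophil genes was 27187 to 62721 FPKM (fragments relative to transcript length and library total), and that of 15 chondrocyte genes was 668 to 1496 FPKM, the highest of these in KO replicate 1.

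Trbc2 had the highest mean level of the T-cell genes, and Trbc1 and Trbc2 are near copies of each other. They lie side by side on chromosome 6 at 41538218 to 41539881 and 41546730 to 41548352, on the plus strand of GRCm38. Their coding sequences in GENCODE are 518 bases long and differ at 23 bases, which gives 95.6% identity, and the first 259 bases are the same in both. The end of each coding sequence, bases 381 to 518, is shown because it holds 22 of the differences, which are in capitals. A read from the shared part cannot be assigned to either gene, so the split between Trbc1 and Trbc2 is uncertain.
Trbc1: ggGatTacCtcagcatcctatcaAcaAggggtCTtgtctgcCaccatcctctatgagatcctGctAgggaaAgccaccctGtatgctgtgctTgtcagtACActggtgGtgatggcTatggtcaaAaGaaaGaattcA
Trbc2: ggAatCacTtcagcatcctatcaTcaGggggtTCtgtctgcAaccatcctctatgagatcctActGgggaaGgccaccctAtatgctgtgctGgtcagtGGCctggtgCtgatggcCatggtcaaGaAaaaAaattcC

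Promoters of 23 members were matched in the RefSeq table (GRCm38.p6), as 32 windows of 300 bases from 250 before the start site to 50 after it. The RUNX motif TGTGGT, read on both strands, was in 8 of 11 windows of cytotoxic members (72.7%), in 4 of 21 windows of T-cell members (19%), and in 16.8% of all 32851 windows. Those 8 windows belonged to 7 of 10 cytotoxic genes, and the 4 T-cell windows to 4 of 13 T-cell genes. Both Ncr1 windows, starting at 4337465 and 4337474, are among the 8, and they overlap and hold the same matches. The part before the start site is shown for 3 cytotoxic members on the plus strand: Nkg7, whose level was above wildtype, and Prf1 and Ncr1, whose levels were below. Capitals mark the RUNX motif or its reverse complement, which ended 78 bases before the start site in Nkg7, 125 before it in Prf1, and 171 and 36 before it in Ncr1. In the Nkg7 window 1 pair of matches to the searched motifs overlapped. The windows of Gzmk, Eomes and Tbx21 held no RUNX match, and a match is only a description of these letters.
Nkg7 (chr7:43436888-43437137): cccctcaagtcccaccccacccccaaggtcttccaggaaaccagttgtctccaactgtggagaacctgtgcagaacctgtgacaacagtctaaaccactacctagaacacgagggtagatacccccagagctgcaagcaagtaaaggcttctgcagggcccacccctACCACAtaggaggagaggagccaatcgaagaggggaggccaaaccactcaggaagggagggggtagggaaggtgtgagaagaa
Prf1 (chr10:61297586-61297835): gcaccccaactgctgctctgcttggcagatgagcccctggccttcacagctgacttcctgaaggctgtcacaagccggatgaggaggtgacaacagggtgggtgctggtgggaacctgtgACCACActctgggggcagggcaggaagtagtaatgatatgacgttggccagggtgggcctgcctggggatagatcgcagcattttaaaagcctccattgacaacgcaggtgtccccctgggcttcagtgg
Ncr1 (chr7:4337465-4337714): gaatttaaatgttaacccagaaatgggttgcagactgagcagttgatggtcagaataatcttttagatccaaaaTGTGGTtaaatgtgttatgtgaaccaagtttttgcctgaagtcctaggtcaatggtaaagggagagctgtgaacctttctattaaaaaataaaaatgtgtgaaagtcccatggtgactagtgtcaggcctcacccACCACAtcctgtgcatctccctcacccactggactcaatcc

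The other motifs were searched in the same windows. The ETS core GGAAG was in 85.7% of T-cell windows, 54.5% of cytotoxic windows and 71.4% of all windows. The TCF/LEF motif CTTTGA was in 23.8%, 18.2% and 16% of the same sets, and the GATA motif AGATAA in 14.3%, 0% and 11.2%. The T-box motif AGGTGTGA was in none of the T-cell windows, in 9.09% of cytotoxic windows, which is the Nkg7 window alone, and in 1.28% of all windows. With so few windows these shares are coarse, since 1 of the 11 cytotoxic windows is 9.09%.

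T-cell genes were low in abundance and below wildtype on average in the KO libraries, but none passed the test. A gene was tested where its mean over the 6 libraries was at least 0.5 FPKM, which 18 of the 22 T-cell genes and all 13 cytotoxic genes reached. Cd5 and Gzmk reached it only through the wildtype libraries, since their KO means were 0.443 and 0.470 FPKM. Both are among the genes counted below as not overlapping, and Gzmk is among those with an unadjusted p under 0.05. With edgeR's quasi-likelihood test, 0 of the 31 tested members were called at an adjusted p under 0.05, against 0% of all 15373 tested genes. All 18 T-cell genes had a log2 difference (KO minus wildtype) below 0, as did 52.5% of all tested genes, with a median of -0.40 against -0.02 over all genes. An unadjusted p under 0.05 with a lower KO level was found for 3 of the 18 T-cell genes and for 6.07% of all genes. In 8 of the 18, every KO library lay below every wildtype library in FPKM, a pattern seen in 13.7% of all genes. In the 6 libraries as labelled, edgeR called 0 members against 3.71% of all genes. DESeq2 on the 5 samples called 4 members, Cd8b1, Cd2, Prf1 and Nkg7, against 5.72% of all genes. In bulk tissue, fewer cells of a type and less RNA per cell cannot be told apart.

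**Figure D1:**
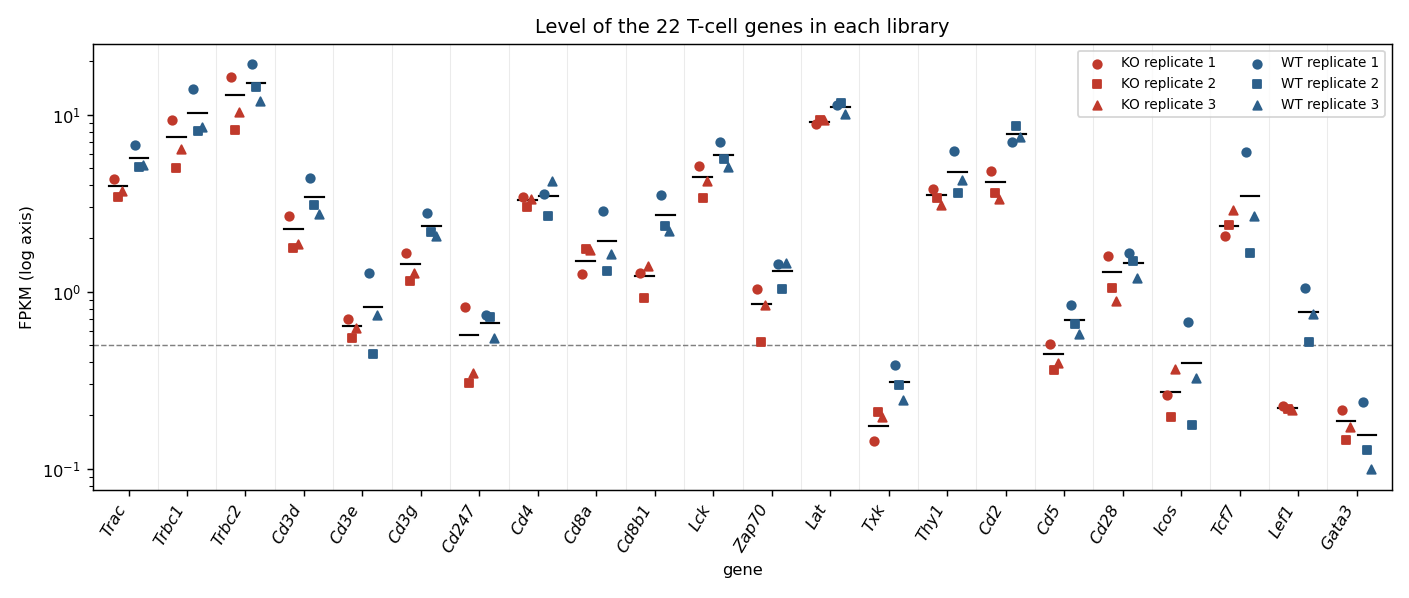
FPKM of the 22 T-cell genes in each library on a log axis, with KO and wildtype libraries as points, black bars for group means (KO replicates 2 and 3 averaged) and a dashed line at the 0.5 FPKM limit for testing. The KO points of Cd2, Cd8b1 and Cd3g lie below all wildtype points, while those of Cd4 and Tcf7 lie among them.

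The receptor chains are described first. Trac, the alpha constant chain, stood at 4.35, 3.42 and 3.68 FPKM in KO replicates 1, 2 and 3 and at 6.74, 5.07 and 5.18 FPKM in wildtype replicates 1, 2 and 3. The groups did not overlap, and the log2 difference was -0.49 ± 0.26 (SE, edgeR adjusted p = 0.478). Trbc1 had 9.30, 4.97 and 6.38 FPKM in KO and 14.01, 8.08 and 8.49 FPKM in wildtype libraries. Here KO replicate 1 lay above 2 of the wildtype libraries, and the log2 difference of -0.40 ± 0.35 became -0.87 without KO replicate 1 and -0.04 without KO replicates 2 and 3. Trbc2 had 16.4, 8.20 and 10.3 FPKM in KO and 19.2, 14.3 and 11.9 FPKM in wildtype libraries. Its log2 difference of -0.20 ± 0.32 turned to 0.20 when KO replicate 1 was the only KO sample.

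Variable segments, which are joined in each T cell to make its receptor, were counted alongside. Beta segments summed to 282, 302 and 223 counts in KO and 398, 342 and 398 counts in wildtype libraries over 21 segments. Relative to library totals this was 5.40, 4.78 and 3.52 CPM (counts scaled to the total) in KO and 6.88, 6.49 and 7.04 CPM in wildtype libraries, with no overlap between the groups. Alpha segments summed to 151, 164 and 128 counts in KO and 169, 155 and 126 counts in wildtype libraries over 88 segments, and the groups overlapped. Of these segments, 76 alpha and 20 beta segments had a count in some library. How evenly the counts were shared among these segments was not examined.

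The CD3 chains are encoded by neighbouring genes on chromosome 9, from 44969572 for Cd3g to 45009622 for Cd3e, and carry the signal of the receptor into the cell. Cd3g (ENSMUSG00000002033) stood at 1.65, 1.15 and 1.28 FPKM in KO and 2.79, 2.16 and 2.06 FPKM in wildtype libraries. These groups did not overlap, with means of 1.43 ± 0.31 (SD, n = 2) and 2.34 ± 0.40 FPKM (SD, n = 3). The log2 difference was -0.68 ± 0.27 (SE), with an edgeR adjusted p of 0.326, or 0.0962 for the libraries as labelled. Cd3d had 2.68, 1.75 and 1.85 FPKM in KO and 4.39, 3.09 and 2.76 FPKM in wildtype libraries. It too did not overlap, though KO replicate 1 came close to wildtype replicate 3, and its log2 difference was -0.57 ± 0.32. Cd3e had 0.696, 0.544 and 0.623 FPKM in KO and 1.28, 0.445 and 0.739 FPKM in wildtype libraries. The wildtype libraries here spanned the KO range on both sides, and the log2 difference of -0.31 ± 0.43 turned to 0.13 without wildtype replicate 1. Cd247, the zeta chain, had 0.814, 0.306 and 0.348 FPKM in KO and 0.742, 0.716 and 0.547 FPKM in wildtype libraries. KO replicate 1 was the highest library of all and KO replicates 2 and 3 the lowest, so the log2 difference was -1.07 without KO replicate 1 and 0.36 with it as the only KO sample. Cd247 shares its locus with the opposite-strand gene Pou2f1, which had 13002 counts over the 6 libraries against 1187 for Cd247, and whether strand was used in counting is not given in the sources used here.

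The co-receptors CD4 and CD8 bind the molecules that present peptide and separate helper from killer T cells. Cd8b1 (ENSMUSG00000053044, chromosome 6, 71322788 to 71337494), the beta chain of CD8, stood at 1.28, 0.924 and 1.40 FPKM in KO and 3.53, 2.35 and 2.20 FPKM in wildtype libraries. All KO libraries lay below all wildtype libraries, with means of 1.22 ± 0.081 (SD, n = 2) and 2.69 ± 0.73 FPKM (SD, n = 3). Its log2 difference of -1.11 ± 0.31 was the lowest of the tested T-cell genes, a 2.16-fold lower level, with an edgeR adjusted p of 0.203 and a DESeq2 adjusted p of 0.0234. Cd8a, the alpha chain, had 1.26, 1.75 and 1.72 FPKM in KO and 2.85, 1.31 and 1.63 FPKM in wildtype libraries. The groups overlapped, and the log2 difference of -0.34 ± 0.34 was 0.02 without wildtype replicate 1. Cd8a is also made by some dendritic and innate lymphoid cells, whereas Cd8b1 is largely restricted to T cells. Cd4 had 3.40, 3.01 and 3.31 FPKM in KO and 3.54, 2.66 and 4.20 FPKM in wildtype libraries. It overlapped fully, with a log2 difference of -0.06 ± 0.22, of which the 2 SE interval spans changes of either sign.

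Next to the receptor act kinases and an adaptor, of which Lck, Zap70 and Lat were tested. Lck, the kinase that phosphorylates the CD3 chains, had 5.12, 3.37 and 4.22 FPKM in KO and 6.99, 5.61 and 5.07 FPKM in wildtype libraries. Only KO replicate 1 reached the wildtype range, and the log2 difference was -0.37 ± 0.23. Zap70 had 1.03, 0.517 and 0.838 FPKM in KO and 1.44, 1.03 and 1.46 FPKM in wildtype libraries. Its groups met at the printed precision without crossing, and the log2 difference was -0.57 ± 0.32. Lat, the membrane scaffold that Zap70 phosphorylates and that mast cells and megakaryocytes also use, had 8.88, 9.29 and 9.27 FPKM in KO and 11.3, 11.6 and 10.1 FPKM in wildtype libraries. It did not overlap, with a small log2 difference of -0.26 ± 0.14. EdgeR adjusted p-values of the 3 genes ran from 0.509 to 0.554.

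Among surface receptors, Cd2 (ENSMUSG00000027863, chromosome 3, 101275899 to 101287939), an adhesion receptor of T, NK and mouse B cells, stood furthest apart. It had 4.80, 3.62 and 3.34 FPKM in KO and 7.04, 8.65 and 7.51 FPKM in wildtype libraries. The groups were well separated, with means of 4.14 ± 0.93 (SD, n = 2) and 7.73 ± 0.83 FPKM (SD, n = 3). Its log2 difference was -0.87 ± 0.24, a 1.83-fold lower level, with adjusted p-values of 0.202 by edgeR, 0.0506 by edgeR on the libraries as labelled and 0.0215 by DESeq2. Cd5, an inhibitory receptor of T cells and some B cells, had 0.508, 0.358 and 0.397 FPKM in KO and 0.836, 0.659 and 0.577 FPKM in wildtype libraries, without overlap. Thy1, which stromal cells carry too, had 3.78, 3.36 and 3.10 FPKM in KO and 6.21, 3.62 and 4.29 FPKM in wildtype libraries, with overlap. Neither passed the test, with log2 differences of -0.60 ± 0.31 and -0.39 ± 0.25. Cd28, the main costimulatory receptor, had 1.599, 1.05 and 0.885 FPKM in KO and 1.66, 1.48 and 1.19 FPKM in wildtype libraries. It overlapped, and its log2 difference of -0.14 ± 0.29 was -0.61 without KO replicate 1 and 0.23 without KO replicates 2 and 3.

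Lineage transcription factors were split by the limit on low values. Tcf7, which keeps T cells naive or memory-like and is also used by innate lymphoid cells, had 2.05, 2.37 and 2.87 FPKM in KO and 6.11, 1.66 and 2.67 FPKM in wildtype libraries. Wildtype replicate 1 alone set the wildtype mean above KO, since the log2 difference of -0.54 ± 0.49 was 0.11 without that library. Lef1 (ENSMUSG00000027985, chromosome 3, 131110471 to 131224356), its close relative, which B-cell precursors also use, had 0.225, 0.217 and 0.215 FPKM in KO and 1.05, 0.517 and 0.744 FPKM in wildtype libraries. Its groups were the most widely separated of the T-cell genes, but its mean of 0.495 FPKM fell just short of the limit and it was not tested. With the limit at 0.1 FPKM its log2 difference was -1.74 ± 0.33, with an edgeR adjusted p of 0.202. The other untested genes were Txk, a kinase of T and NK cells, at 0.144 to 0.208 FPKM in KO and 0.244 to 0.384 FPKM in wildtype libraries, Icos, a costimulatory receptor, at 0.195 to 0.365 and 0.177 to 0.676 FPKM, and Gata3, at 0.145 to 0.214 and 0.0991 to 0.237 FPKM. Of these Txk did not overlap between the groups, and Icos and Gata3 did.

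Cytotoxic genes showed 2 behaviours, with Nkg7 above wildtype and most of the others below. Of the 13 genes, 11 had a log2 difference below 0, against 52.5% of all genes, and 2 above. The median was -0.57, or -0.61 over the 12 genes without Nkg7. An unadjusted p under 0.05 was found for 6 with lower KO levels and for 1, Nkg7, with a higher level, against 6.07% and 7.63% of all genes. In 7 genes every KO library was below every wildtype library, and in Nkg7 every KO library was above, against 13.7% and 11.3% of all genes. None was called by edgeR, either with 5 samples or with the libraries as labelled. Summed over the 13 genes, the level was 105, 126 and 125 FPKM in KO and 101, 100.03 and 87.8 FPKM in wildtype libraries. Without Nkg7 it was 27.3, 26.7 and 25.5 FPKM in KO and 33.0 to 40.3 FPKM in wildtype libraries, so the direction of the summed level turned on this gene.

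**Figure D2:**
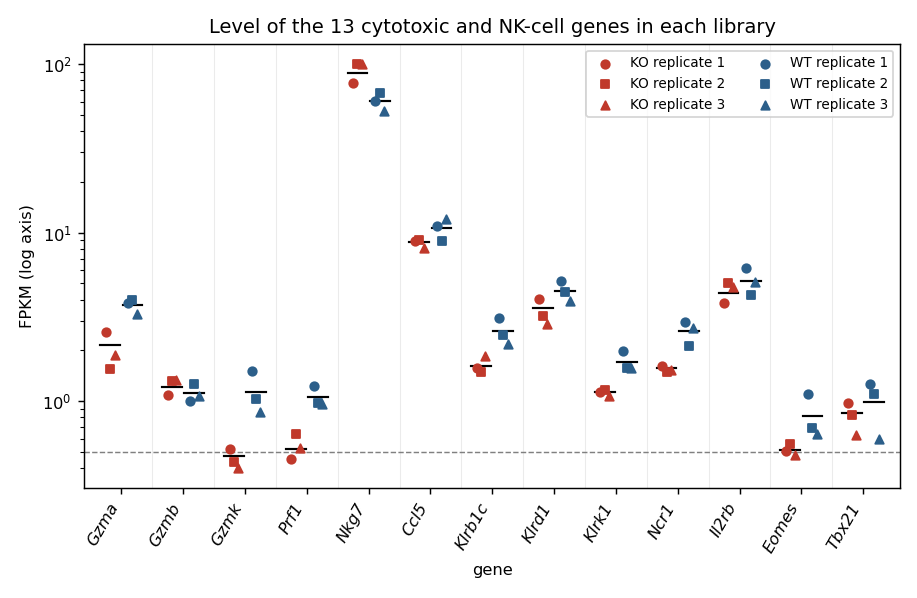
FPKM of the 13 cytotoxic genes in each library on a log axis, with KO and wildtype libraries as points, black bars for group means (KO replicates 2 and 3 averaged) and a dashed line at 0.5 FPKM. Nkg7 sits at 52.8 to 99.97 FPKM, above the 8.10 to 12.0 FPKM of Ccl5, and is the only gene with all KO points above all wildtype points.

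Granule proteins differed in direction. Prf1 (ENSMUSG00000037202, chromosome 10, 61297833 to 61304680), which encodes perforin, the pore former that lets granzymes in, stood at 0.452, 0.637 and 0.530 FPKM in KO and 1.23, 0.979 and 0.967 FPKM in wildtype libraries. The groups did not overlap, with means of 0.518 ± 0.093 (SD, n = 2) and 1.06 ± 0.15 FPKM (SD, n = 3). Its log2 difference was -0.99 ± 0.30, a 1.99-fold lower level, with an edgeR adjusted p of 0.222 and a DESeq2 adjusted p of 0.0435. Gzma and Gzmk, serine proteases encoded near each other on chromosome 13 (113093825 to 113100981 and 113171608 to 113225908), were both separated. Gzma had 2.57, 1.56 and 1.87 FPKM in KO and 3.83, 3.98 and 3.29 FPKM in wildtype libraries, and Gzmk had 0.521, 0.436 and 0.402 FPKM in KO and 1.51, 1.02 and 0.863 FPKM in wildtype libraries. Their log2 differences were -0.76 ± 0.31 and -1.23 ± 0.39, the latter the lowest of the 31 tested members, with edgeR adjusted p-values of 0.349 and 0.249. Gzmk rested on 40 to 140 counts per library, and its KO mean of 0.470 FPKM was under the 0.5 FPKM limit. It overlaps the opposite-strand gene Esm1, which had 9983 counts over the 6 libraries against 431 for Gzmk. Gzmb, the granzyme best known for setting off cell death, had 1.08, 1.33 and 1.34 FPKM in KO and 0.997, 1.27 and 1.08 FPKM in wildtype libraries. It overlapped, with a log2 difference of 0.13 ± 0.31, and thus did not share the lower values of Prf1, Gzma and Gzmk.

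Nkg7 (ENSMUSG00000004612, chromosome 7, 43437073 to 43438249), a membrane protein of cytotoxic granules, is also expressed in myeloid cells. It stood at 77.6, 99.7 and 99.97 FPKM in KO and 60.8, 67.1 and 52.8 FPKM in wildtype libraries. Every KO library was above every wildtype library, with means of 88.7 ± 16 (SD, n = 2) and 60.2 ± 7.2 FPKM (SD, n = 3). The log2 difference was 0.57 ± 0.16, a 1.48-fold higher level, with adjusted p-values of 0.202 by edgeR, 0.0503 by edgeR on the libraries as labelled and 0.0418 by DESeq2. Nkg7 made up 74.0% to 79.7% of the summed level of the cytotoxic genes in KO and 60.1% to 67.0% in wildtype libraries. Markers of granulocytes differed in the same direction. All 8 granulocyte-precursor genes had higher KO levels with an unadjusted p under 0.05, against 7.63% of all genes, with a median log2 difference of 0.87 and a summed level of 2075 to 2838 FPKM in KO against 1131 to 1548 FPKM in wildtype libraries. All 12 neutrophil genes were higher on average as well, 7 of them with an unadjusted p under 0.05, with a median of 0.83. EdgeR with 5 samples called 0 genes of both lists. Their part in the Nkg7 level was not tested.

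The chemokine and receptors of NK cells and killer T cells were mostly below wildtype. Ccl5, a chemokine of activated T cells, NK cells and platelets, had 8.98, 9.03 and 8.10 FPKM in KO and 11.0, 8.98 and 12.0 FPKM in wildtype libraries. It overlapped, with a log2 difference of -0.26 ± 0.20. Ncr1, which encodes NKp46, the receptor that marks NK cells and some innate lymphoid cells, had 1.63, 1.496 and 1.53 FPKM in KO and 2.94, 2.14 and 2.73 FPKM in wildtype libraries. These groups did not overlap, and the log2 difference was -0.70 ± 0.27 (edgeR adjusted p = 0.313). Of the members, Klrb1c, Klrd1 and Klrk1 lie in the NK gene complex on chromosome 6, between 128778485 at Klrb1c and 129623864 at Klrk1. Klrb1c, which encodes NK1.1, had 1.58, 1.49 and 1.85 FPKM in KO and 3.11, 2.48 and 2.18 FPKM in wildtype libraries. Klrk1, which encodes the activating receptor NKG2D, had 1.14, 1.17 and 1.07 FPKM in KO and 1.98, 1.57 and 1.57 FPKM in wildtype libraries. Neither overlapped, with log2 differences of -0.65 ± 0.24 and -0.57 ± 0.19 and edgeR adjusted p-values of 0.291 and 0.258. Klrd1, which encodes CD94, had 4.05, 3.19 and 2.89 FPKM in KO and 5.16, 4.47 and 3.95 FPKM in wildtype libraries. KO replicate 1 lay within the wildtype range, and the log2 difference was -0.32 ± 0.26. Il2rb, a receptor chain for interleukins that keep NK and memory T cells alive, had 3.83, 5.01 and 4.78 FPKM in KO and 6.16, 4.28 and 5.08 FPKM in wildtype libraries, with overlap and a log2 difference of -0.23 ± 0.18.

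Eomes and Tbx21 encode the T-box factors that set the cytotoxic programme. Eomes had 0.508, 0.554 and 0.478 FPKM in KO and 1.11, 0.695 and 0.643 FPKM in wildtype libraries. Its groups did not overlap, with a log2 difference of -0.64 ± 0.32 and an edgeR adjusted p of 0.455. Tbx21 had 0.974, 0.823 and 0.629 FPKM in KO and 1.26, 1.10 and 0.599 FPKM in wildtype libraries. It overlapped, with a log2 difference of -0.18 ± 0.40, and the direction rested on wildtype replicate 1, without which it was 0.0023.

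**Figure D3:**
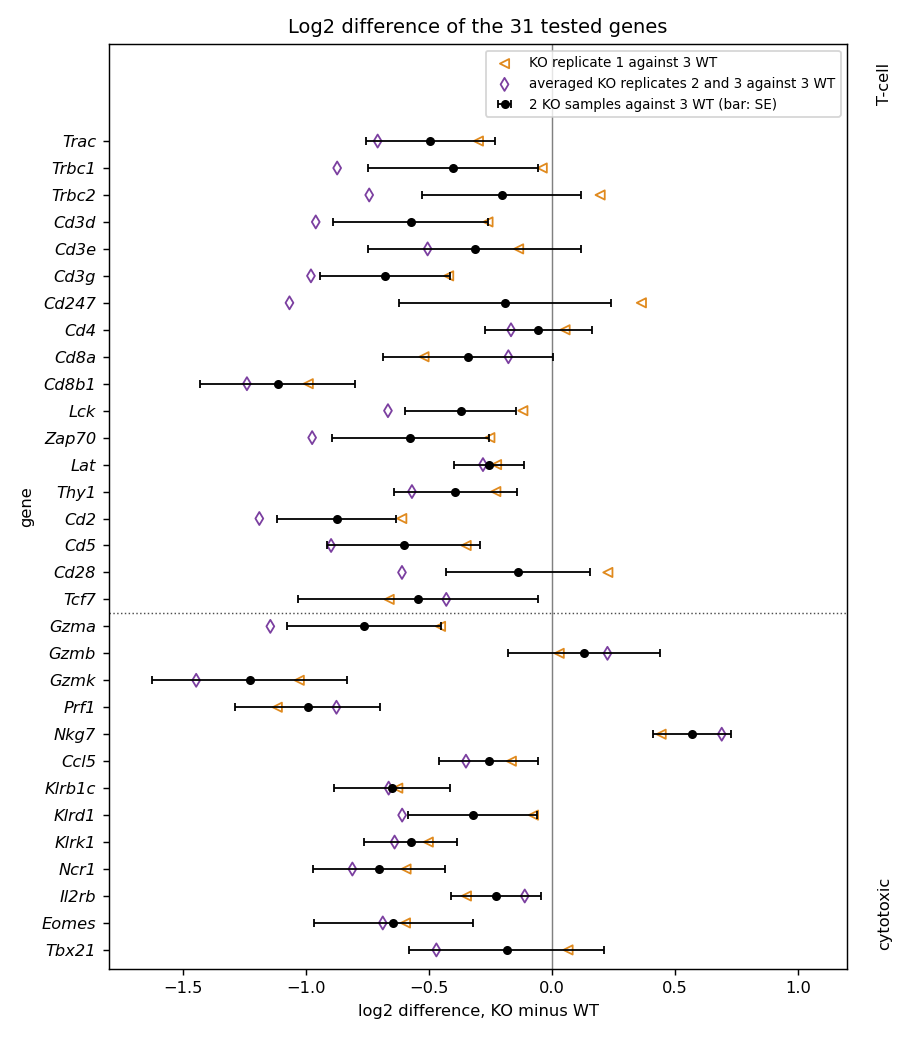
Log2 difference (KO minus wildtype) of the 31 tested members from edgeR, as black points with bars of 1 SE, T-cell genes above the dotted line and cytotoxic genes below it. Open triangles set KO replicate 1 alone and open diamonds the averaged KO replicates 2 and 3 against the wildtype libraries. Of the 31, 29 lie below 0, from -1.23 for Gzmk, and Gzmb at 0.13 and Nkg7 at 0.57 lie above.

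The libraries within a group were not alike for these genes. Wildtype replicate 1 was the highest of the 6 libraries for 13 of 18 T-cell genes and 9 of 13 cytotoxic genes, against 25.1% of all tested genes. KO replicate 1 lay above both other KO libraries for 14 of 18 T-cell genes but for 5 of 13 cytotoxic genes, against 34.8% of all genes. The T-cell median was -0.72 without KO replicate 1, -0.24 without KO replicates 2 and 3, and -0.21 without wildtype replicate 1. The cytotoxic median moved less, to -0.64, -0.45 and -0.39. Below 0 were 18 T-cell genes without KO replicate 1, 14 without KO replicates 2 and 3, and 15 without wildtype replicate 1. For cytotoxic genes these counts were 11, 10 and 10 of 13. KO replicate 1 also had the highest summed level of chondrocyte genes, 1496 FPKM against 668 to 890 FPKM in the other libraries, and its part in the T-cell values was not tested.

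Other genes of the T-cell pathway were read from a list of 35 names, of which 34 were in the table and 26 were tested. Of these 19 had a log2 difference below 0, against 52.5% of all genes, with a median of -0.30. An unadjusted p under 0.05 was found for 8 with lower and 1 with higher KO levels, against 6.07% and 7.63% of all genes. EdgeR called 0 with 5 samples and, in the libraries as labelled, 4 lower and 0 higher, against 1.25% and 2.46% of all genes. Il7r, the receptor for interleukin 7 on T cells and B-cell precursors, had 3.14, 3.12 and 3.17 FPKM in KO and 7.51, 6.39 and 6.56 FPKM in wildtype libraries. Its KO libraries were nearly equal and far below the wildtype ones, with a log2 difference of -1.10 and edgeR adjusted p-values of 0.119, or 0.01999 as labelled. S1pr1, the receptor by which lymphocytes leave tissue and which endothelium also carries, and Il2ra, the alpha chain of the interleukin 2 receptor, had log2 differences of -0.87 and -1.21. Their edgeR adjusted p-values were 0.175 and 0.178, or 0.0422 and 0.0456 as labelled. Il2ra, at 0.313 to 0.446 FPKM in KO libraries, passed the 0.5 FPKM limit only through the wildtype libraries. The 3 genes are also used by other cells of marrow, and those cells' part in the values was not tested.

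Other cytotoxic genes were mixed in direction. Of 35 names 30 were tested, with 16 below and 14 above 0 and a median log2 difference of -0.13. An unadjusted p under 0.05 was found for 4 with lower and 6 with higher KO levels, against 6.07% and 7.63% of all genes. EdgeR called 0 with 5 samples and, in the libraries as labelled, 1 lower and 4 higher, against 1.25% and 2.46% of all genes. The 3 with the smallest p were all higher in KO: Klrb1f, a receptor of the Klrb1 family, at 0.79, Nfil3, a factor needed for NK development that myeloid cells also express, at 0.83, and Il18rap, a receptor chain for interleukin 18, at 0.69. None of them passed edgeR's test with 5 samples. Klra4 came next by p, lower in KO at -1.56. Klra7, Klra8 and Klra9 were also lower, at -0.43, -0.91 and -1.28, while Klra1 was higher at 0.27. Klra9, at 0.285 to 0.537 FPKM in KO libraries, passed the 0.5 FPKM limit only through the wildtype libraries. The list also holds far more abundant genes, such as Tyrobp at 394 to 703 FPKM and Fcgr3 at 72.1 to 131 FPKM. The part of other cells in these values was not tested. Genes of gamma-delta T cells, whose receptor uses other chains, gave 6 tested genes, with 2 below 0 and a median of 0.25, which was -0.36 without KO replicate 1 and 0.47 without KO replicates 2 and 3. Trgc4 at -0.79, Sox13 at 0.38 and Trgc2 at 0.51 had the smallest p of these, and none was called. Gamma variable segments summed to 20 to 32 counts in KO and 11 to 30 counts in wildtype libraries, and delta segments to 19 to 39 and 34 to 79 counts, so both overlapped.

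Markers of the other blood cells were read beside the members. B cells, the other lymphocyte lineage, had the lowest median of the lists read here. All 16 B-cell genes were lower with an unadjusted p under 0.05, against 6.07% of all genes, and the median log2 difference was -1.40. EdgeR called 0 of the 16 with 5 samples and 14 in the libraries as labelled, against 1.25% of all genes called lower there. Their summed level was 123 to 178 FPKM in KO and 365 to 415 FPKM in wildtype libraries. Of 10 genes shared by all leukocytes 9 were higher on average, with a median of 0.47, and of 14 monocyte and macrophage genes 7 were lower, with a median of -0.04. Each difference was also taken relative to the geometric mean of the 10 pan-leukocyte genes, which include Ptprcap, itself lower at -2.14. The T-cell median was then -0.63, the cytotoxic median -0.80, Nkg7 0.34 and the median of all genes -0.23. The size of this shift depends on Ptprcap, and a scaling without that gene was not run. The B-cell genes' part in Cd2, Cd5, Lef1 and Il7r, which B-lineage cells share, was not tested.

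**Figure D4:**
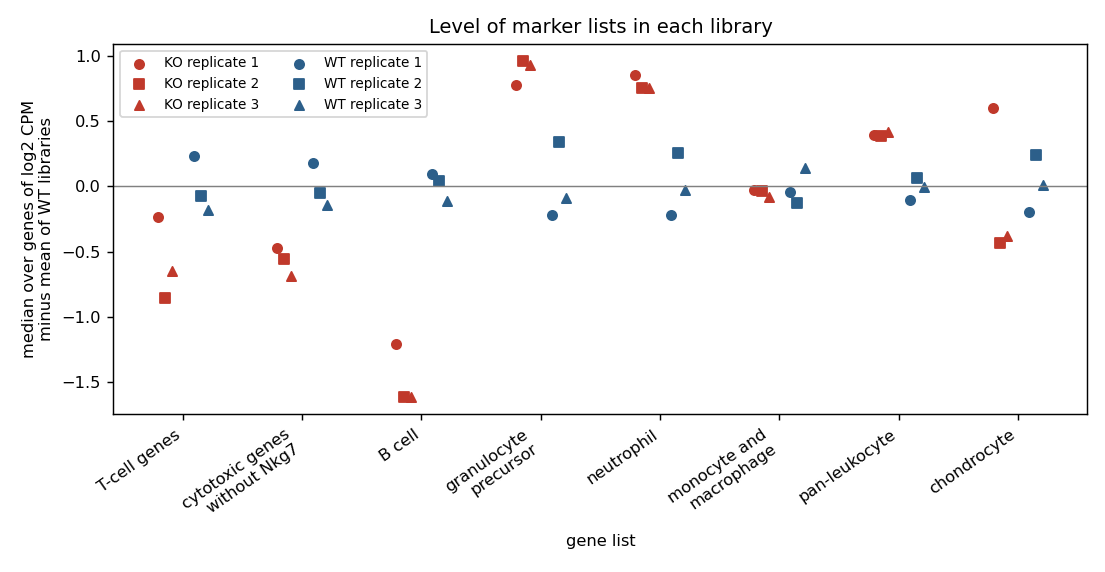
Median log2 CPM difference from the wildtype mean for each gene list, 1 point per library, on a linear axis. KO libraries lie from -0.86 to -0.23 for the T-cell genes, and wildtype libraries from -0.18 to 0.23, between the B-cell genes at -1.62 to -1.21 in KO libraries and the granulocyte-precursor genes at 0.78 to 0.96.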

How the data were processed

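RNA sequencing of articular cartilage gave 6 libraries, grouped by the sample titles. Per the labels, poly(A) RNA was turned into strand-specific libraries with molecular identifiers, and the processing notes name cutadapt 1.9, HISAT2 2.0.4, UMI-tools, StringTie 1.3.4d, DESeq2 and edgeR without their roles. The authors deposited FPKM values, scaled by them to transcript length and library total. The estimated counts deposited by the authors were whole numbers with an excess of the value 4 (6596 entries, against 4170 of the value 3), so a count was not taken as 1 read pair. Totals were 52268311 to 63331135 per library. A count of 0 allows, at 3 counts, a level of up to 0.0574 CPM in the library with the lowest total, for counting error only. The targeted gene itself is not reported here.

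Counts of KO replicates 2 and 3 were averaged and rounded. Testing was limited to genes whose mean reached 0.5 FPKM and used edgeR 4.0.16 (quasi-likelihood, TMM, R 4.3.3) with Benjamini-Hochberg adjustment over 15373 genes and a call at an adjusted p under 0.05. SE is that of the log2 difference. The code of the test was run on simulated counts with a fixed spread and no averaged sample. That setting is simpler than these data, so it does not show the error rate of the test here. Alternatives were the libraries as labelled, DESeq2 1.42.0, limma 3.58.1 on log2(FPKM + 1) or log2(FPKM + 0.1), other scalings and limits, a replicate block and each library left out. Positions follow GRCm38, in which 29 of 35 members had the same ends in GENCODE vM21. All members are named, and of each other list up to 3 genes with the smallest unadjusted p. Of the other cytotoxic genes, the Klra genes, S1pr5, Tyrobp and Fcgr3 are named as well. The members, lists and tests were chosen with earlier results of these data known. All per-sample columns were matched by name, and 0 were left unused.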

Additional observations from a re-analysis of the deposited data

How the results depend on the processing

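Of the 31 tested members, 22 kept the direction of their log2 difference in all 16 alternatives, and edgeR and limma called 0 members in each of theirs. DESeq2 called 4 members and 879 of all genes, where edgeR called 0. Of all genes, edgeR called 570 in the 6 libraries as labelled, 21 with no limit on low values, 9 without KO replicates 2 and 3, and 0 to 352 with 1 library left out, the 352 being without KO replicate 1. Where KO replicate 1, or KO replicates 2 and 3, were left out, the lone KO sample was assumed to vary like wildtype. With 1 library left out the T-cell median ran from -0.72 to -0.21 and the cytotoxic median from -0.64 to -0.39, in both cases lowest without KO replicate 1 and highest without wildtype replicate 1. The single genes Cd4, Cd8a, Tcf7 and Tbx21 then reached down to -0.19, -0.53, -0.86 and -0.47. The cytotoxic median was -0.28 with limma on log2(FPKM + 1), a scale that compresses low values, and -0.80 relative to the pan-leukocyte genes. Directions that turned, in genes that passed no test, were those of Trbc2 (0.20), Cd247 (0.36), Cd4 (0.053), Cd28 (0.23) and Tbx21 (0.066) without KO replicates 2 and 3, of Cd3e (0.13), Cd8a (0.020), Tcf7 (0.11) and Tbx21 (0.0023) without wildtype replicate 1, of Cd4 (0.12) without wildtype replicate 3 and of Gzmb (-0.087) relative to the pan-leukocyte genes. With the replicate block on the 6 libraries 0 genes and 0 members were called, and the medians were -0.52 for T-cell and -0.59 for cytotoxic genes. The deviations of same-numbered libraries from their group means correlated at -0.21, -0.18 and 0.0014. Since KO replicates 2 and 3 were nearly alike, these values are not independent and cannot show whether same-numbered libraries were paired.

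Tested members had 40 to 6434 counts per library, and with 2 KO samples the SE of their log2 differences ran from 0.14 to 0.49.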

Other observations

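Marker lists of other cells of joint and marrow were read for the same libraries, with no gene called by edgeR on 5 samples in any of them. Of 9 megakaryocyte and platelet genes all 9 were lower on average in KO libraries, with a median log2 difference of -0.23, and in 4 every KO library lay below every wildtype library, against 13.7% of all tested genes. Of 9 tested dendritic-cell genes 8 were lower, with a median of -0.22. Mast-cell, basophil and eosinophil genes had a median of -0.01 over 10 tested genes. Fibroblast and endothelial genes both had a median of -0.47, over 9 and 5 genes. Chondrocyte genes had a median of 0.06 over 12 tested genes, which was -0.45 without KO replicate 1 and 0.58 with it as the only KO sample.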
